A study of Mus musculus with 9 samples.

Results

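The 9 genes described here code for secreted or membrane-bound metalloproteinases (Mmp9, Mmp12, Mmp14, Mmp19 and Adam8), for tissue inhibitors of metalloproteinases (Timp1, Timp2 and Timp3) and for tartrate-resistant acid phosphatase, TRAP (Acp5). They were chosen by their gene symbol from the 56691 genes of the expression table, and all 9 were found. RNA from RAW264.7 cells, a mouse macrophage line that forms osteoclast-like cells when stimulated with RANKL, was sequenced in 3 groups of 3 libraries. The control group was left without RANKL, the RANKL group received RANKL, and the RANKL + UD group received RANKL together with uridine (UD). The study's methods give RANKL at 50 ng/mL, and the labels give 3 days of culture. The UD dose of these libraries is not named in the sources used here, and cells given UD without RANKL were not analysed here, so an effect of UD on its own cannot be told apart from an effect on the RANKL response. All libraries came from the same cell line and the labels call them replicate biosamples without saying whether cultures were set up separately, so p-values measure the spread between these samples, which may be technical. In bulk RNA of this kind, fewer cells of a type and less RNA per cell cannot be told apart.

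Osteoclasts dissolve bone mineral with acid and then digest the exposed organic matrix with secreted proteases. Matrix metalloproteinases are zinc enzymes that are made as inactive precursors, cut collagens, elastin and other matrix proteins once activated, and are blocked by the TIMP proteins, which bind to their active site. TRAP is an acid phosphatase of osteoclasts whose activity stain is the usual way to count them, and MMP9, also called gelatinase B, is abundant in osteoclasts. In the annotation that the authors deposited with the table, 8 of the 9 genes carry the term zinc ion binding, 5 metalloendopeptidase activity and 3 metalloendopeptidase inhibitor activity, while Acp5 carries none of these.

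Library totals ran from 15951800 to 19746862 counts. Reads counted per gene were tested with edgeR's quasi-likelihood test in a single fit of all 9 libraries, over the 11995 genes with at least 1 FPKM (counts divided by exonic length and by the library total) in at least 3 libraries, and adjusted p-values are Benjamini-Hochberg values over those genes with a threshold of 0.05. Of the 9 genes, 6 entered the test, and Mmp14, Timp1 and Timp3 were too low. Mmp9 and Acp5 passed this filter through the groups given RANKL, where they were high, so their difference from control was in part set by the filter. Markers of the cell types that could be present were read in the same libraries. The summed FPKM of 8 osteoclast markers was 56.2 to 59.1 in control, 2029 to 2164 in RANKL and 1249 to 1299 in RANKL + UD libraries, and Calcr, the calcitonin receptor, was at 0 in the 3 control libraries. The summed FPKM of 6 macrophage markers was 8872 to 9460, 2370 to 2600 and 2069 to 2197 in the same order, mostly from Lyz2. Of these 6, 5 fell with RANKL and Cd68 rose (log2 fold change 0.60, edgeR adjusted p = 1.07e-08), and 5 fell with UD and Adgre1 rose (log2 fold change 0.22, edgeR adjusted p = 0.0142). The Adgre1 call was lost without RANKL replicate 1 or RANKL + UD replicate 3, which left 0 of the list higher, and limma called 2 or 3 of the 6 lower with UD. Markers of stromal cells, which are a rich source of several metalloproteinases, were low, and none of the 7 genes entered the test. Their summed FPKM was 0.65 to 1.21 in control, 0.22 to 0.28 in RANKL and 0.13 to 0.25 in RANKL + UD libraries. The control sum was mostly Pdgfrb (0.86 FPKM, and 0.11 and 0.09 in the RANKL and RANKL + UD groups). Without the filter, 1 stromal marker was called lower with RANKL. The osteoclast and macrophage markers moved with the groups compared below, and the stromal sum was higher in control. The part of these markers in the results was not tested.

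To show the DNA beside the gene that rose almost from nothing, the gene that fell at both steps and the gene that RANKL left near its control level, the stretches before the annotated starts of Acp5, Mmp12 and Adam8 are printed from RefSeq (build GRCm38.p6, 5′ to 3′ on the strand of the gene). RefSeq promoter windows matched 7 of the 9 genes in 10 windows, and Mmp9 and Mmp19 were not among them. Both strands of the 250 bases before each start were searched for 5 motifs. They were TGANTCA (bound by AP-1), GGAAA (the NFAT core), CANGTG (an E-box pattern), GAGGAA (the PU.1 core) and TATAAA (the TATA box). CANGTG is wider than the E-boxes bound by the MiT/TFE family, which includes the osteoclast regulator MITF. Of 32817 windows of the same length, the 5 motifs were found in 6.75%, 55.56%, 39.51%, 23.25% and 12.37% respectively. Capitals mark matches to any of the motifs other than GGAAA, which was left in lower case because it is so frequent and which can overlap GAGGAA.
Acp5, chr9:22135747-22135996, minus strand: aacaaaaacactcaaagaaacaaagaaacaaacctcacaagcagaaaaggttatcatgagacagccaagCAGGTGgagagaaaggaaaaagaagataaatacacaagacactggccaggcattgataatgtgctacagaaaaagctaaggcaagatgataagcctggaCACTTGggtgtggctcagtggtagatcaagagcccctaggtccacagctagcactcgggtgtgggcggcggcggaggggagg
Mmp12, chr9:7344147-7344380, plus strand: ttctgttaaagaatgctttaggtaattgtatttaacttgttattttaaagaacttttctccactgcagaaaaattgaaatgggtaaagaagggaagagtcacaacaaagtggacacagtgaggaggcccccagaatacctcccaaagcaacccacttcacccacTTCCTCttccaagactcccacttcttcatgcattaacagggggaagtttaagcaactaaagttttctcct
Adam8, chr7:139992563-139992812, minus strand: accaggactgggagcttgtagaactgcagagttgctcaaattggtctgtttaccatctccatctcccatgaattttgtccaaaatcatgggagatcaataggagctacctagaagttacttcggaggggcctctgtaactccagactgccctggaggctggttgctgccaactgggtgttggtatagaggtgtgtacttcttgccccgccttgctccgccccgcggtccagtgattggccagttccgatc
The Acp5 stretch holds 2 CANGTG matches, printed as CAGGTG and CACTTG, which begin 181 and 82 bases before the start. The other 2 Acp5 windows, at starts inside the gene, hold 1 CANGTG match each. GGAAA was found in all 3 Acp5 windows. The Mmp12 stretch holds a GAGGAA match on the opposite strand, beginning 86 bases before the RefSeq start, and its other window holds TGANTCA and CANGTG beginning 44 and 83 bases before that start. CANGTG was also found in the Timp2 and Timp3 windows and GGAAA in those of Mmp14 and Timp1. The Adam8 stretch holds none of the 5 motifs. These matches describe the letters and were not tested as binding sites.

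Mmp9 had the largest difference of the 6 tested genes between RANKL and control. Its gene lies on chromosome 2 from 164782700 to 164797770 in the table's coordinates. The 3 control libraries stood at 0.57, 0.40 and 0.32 FPKM, resting on 18 to 34 counts each. The RANKL libraries reached 297.93, 326.12 and 318.82 FPKM, and the RANKL + UD libraries 127.63, 133.49 and 135.36 FPKM. The groups did not overlap, and Mmp9 went from rank 11795 of the 11995 tested genes by FPKM in the control group up to rank 116 in RANKL libraries, with rank 294 in RANKL + UD. RANKL raised it by 9.59 on the log2 scale (SE 0.095, edgeR adjusted p = 5.19e-25), a 773-fold rise that was the 17th largest of all tested genes. With UD, Mmp9 was 2.52-fold lower than with RANKL alone (log2 fold change -1.34, SE 0.054, edgeR adjusted p = 2.18e-13). It stayed 306-fold above control in that group.

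Acp5, which encodes TRAP, rose nearly as far with RANKL and was less reduced in the UD group. Its gene lies on chromosome 9 from 22038023 to 22047007 in the table's coordinates. Control libraries stood at 0.88, 0.80 and 1.05 FPKM with 30 to 34 counts, RANKL libraries at 381.48, 413.16 and 437.07 FPKM, and RANKL + UD libraries at 334.51, 341.59 and 347.94 FPKM. The lowest RANKL library was above the highest RANKL + UD library, so the groups did not overlap here either. The rise with RANKL was 483-fold (log2 fold change 8.91, SE 0.089, edgeR adjusted p = 5.19e-25). The fall with UD was 1.28-fold (log2 fold change -0.35, SE 0.051, edgeR adjusted p = 1.23e-05). This fall was lost with limma on quantile-normalized values (log2 fold change -0.14, adjusted p = 0.177) and with limma on log2(FPKM + 0.1) (log2 fold change -0.26, adjusted p = 0.0609). Over the 18 alternatives it ran from -0.40 to -0.14.

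The ratio of Mmp9 to Acp5 counts within a library does not depend on how libraries are scaled, and it set the 2 genes apart. On the log2 scale the ratio was 0.45, 0.46 and 0.35 in the RANKL libraries and -0.59, -0.55 and -0.56 in the RANKL + UD libraries. The mean ratio was thus 0.98 lower with UD (standard deviations 0.062 and 0.018, n = 3 each), with all 3 libraries below all 3. In control, where both genes had few counts, the ratio was spread between -0.90 and 0.18. The exact two-sided permutation test gave p = 0.1, the smallest value that 3 against 3 libraries allow, and 0.133 after adjustment over the 8 ratio tests made.

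**Figure D1:**
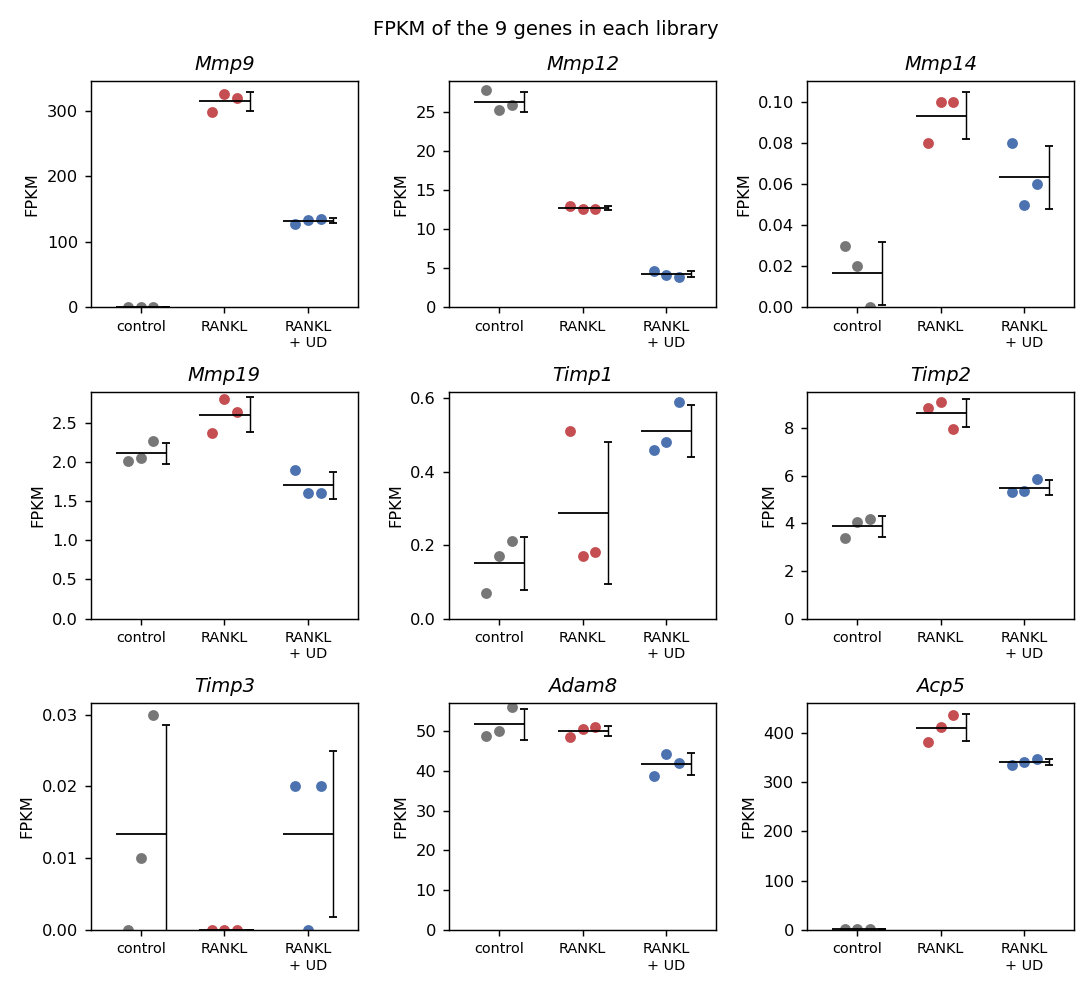
FPKM of each of the 9 genes (vertical axes, each on its own linear scale from 0) in the 3 control, 3 RANKL and 3 RANKL + UD libraries; points are libraries, horizontal lines are means and bars are standard deviations. Mmp9 and Acp5 sat near 0 in control and high in both RANKL groups, Mmp12 stepped down from 26.3 to 12.7 and 4.28 FPKM, and Mmp14, Timp1 and Timp3 stayed below 1 FPKM throughout.

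Mmp12, the macrophage elastase, moved the other way and fell at each step. It lies on chromosome 9 from 7344381 to 7369499. Control libraries stood at 27.78, 25.22 and 25.85 FPKM, RANKL libraries at 13.04, 12.62 and 12.56 FPKM, and RANKL + UD libraries at 4.73, 4.18 and 3.94 FPKM. The 3 groups were fully apart, and the count behind each library never fell below 492. RANKL lowered Mmp12 1.94-fold (log2 fold change -0.96, SE 0.061, edgeR adjusted p = 1.49e-11). The RANKL + UD group was a further 3.15-fold below RANKL (log2 fold change -1.66, SE 0.068, edgeR adjusted p = 2.18e-13), the 84th lowest log2 fold change of the 11995 tested genes. Against control, cells given RANKL and UD held 6.11-fold less Mmp12 RNA (log2 fold change -2.61, edgeR adjusted p = 5.06e-18). The RANKL difference and the UD difference therefore had opposite signs for Mmp9 and Acp5 and the same sign for Mmp12, in comparisons that share the RANKL libraries.

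The balance of the Mmp transcripts changed with RANKL. Summed over Mmp9, Mmp12, Mmp14 and Mmp19, FPKM was 28.8 ± 1.40 (SD, n = 3) in control, 329.7 ± 14.6 in RANKL and 138.2 ± 3.45 in RANKL + UD. Mmp12 made up 91.1% of the sum in control, and 3.87% and 3.11% in the RANKL and RANKL + UD groups. Mmp9 made up 1.48%, 95.3% and 95.6%. The total fell with UD while the share of Mmp9 in RANKL libraries (95.06% to 95.45%) overlapped its share in RANKL + UD libraries (95.01% to 96.02%).

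**Figure D2:**
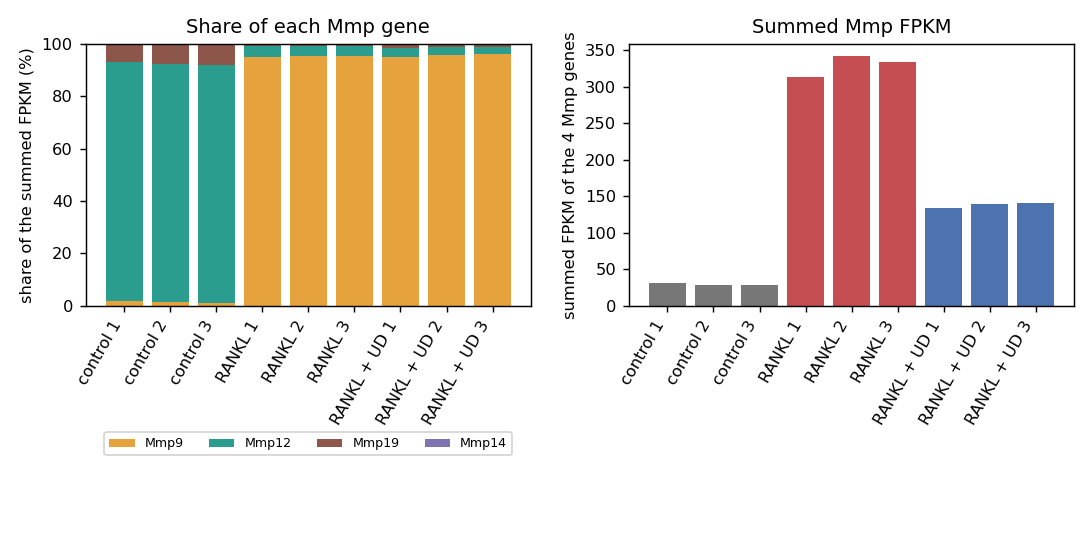
Left, share of the summed FPKM of Mmp9, Mmp12, Mmp19 and Mmp14 (vertical axis, percent) that each gene makes up in each of the 9 libraries; right, that sum in FPKM. Control libraries were mostly Mmp12 (91.1%), all RANKL and RANKL + UD libraries mostly Mmp9, and the sum was lower in the 3 RANKL + UD than in the 3 RANKL libraries.

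Mmp19, a matrix metalloproteinase that cleaves basement membrane proteins, was a low transcript in every group. It lies on chromosome 10 from 128626779 to 128636693. Its libraries stood at 2.02, 2.05 and 2.27 FPKM in control, 2.37, 2.81 and 2.64 FPKM with RANKL, and 1.90, 1.60 and 1.61 FPKM with RANKL + UD. The RANKL libraries were all above the other 6. The rise with RANKL was small (log2 fold change 0.39, SE 0.144, edgeR adjusted p = 0.0246) and was lost with library totals alone (adjusted p = 0.0768), without control replicate 1 (adjusted p = 0.0688) or 2 (adjusted p = 0.0726), and without RANKL replicate 2 (adjusted p = 0.0957) or 3 (adjusted p = 0.0566). The fall with UD was 1.62-fold (log2 fold change -0.70, SE 0.147, edgeR adjusted p = 0.000727), and it passed the threshold under all 18 alternatives. RANKL + UD against control gave a log2 fold change of -0.30 that missed the threshold (edgeR adjusted p = 0.0956), although limma called it (adjusted p = 0.033 on log2(FPKM + 1) and 0.0269 on log2(FPKM + 0.1)). Mmp19 overlaps the tested gene Tmem198b on the opposite strand, which had 1.93, 1.61 and 0.95 FPKM in the 3 groups. The libraries kept strand, but whether the counting used it is not given in the sources used here, so reads of these 2 genes may not be told apart.

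Mmp14, the membrane-anchored enzyme that activates MMP2 and is held in check by TIMP2, had very few reads. It lies on chromosome 14 from 54669069 to 54682821. The control libraries had 3, 2 and 0 counts, the RANKL libraries 9, 12 and 12, and the RANKL + UD libraries 9, 5 and 6. No library exceeded 0.10 FPKM. The 33 counts of the RANKL group against 5 in control give a depth-corrected ratio of 5.96 (95% exact conditional interval 2.31 to 19.5, counting error only). When every gene with a count was tested, edgeR called this rise (log2 fold change 2.6, SE 0.873, adjusted p = 0.0118). The ratio of RANKL + UD to RANKL was 0.663 with an interval from 0.36 to 1.19, so no difference was detectable at this depth.

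Of the inhibitors, Timp2 carried nearly all of the RNA. It lies on chromosome 11 from 118191895 to 118246566, and it made up 96.1%, 96.8% and 91.3% of the summed TIMP FPKM in control, RANKL and RANKL + UD. Control libraries stood at 3.37, 4.07 and 4.17 FPKM, RANKL libraries at 8.83, 9.07 and 7.96 FPKM, and RANKL + UD libraries at 5.29, 5.35 and 5.85 FPKM. The groups did not overlap, and the UD group lay between the other 2. RANKL raised Timp2 2.37-fold (log2 fold change 1.24, SE 0.098, edgeR adjusted p = 5.83e-10). With UD it was 1.67-fold lower than with RANKL alone (log2 fold change -0.74, SE 0.095, edgeR adjusted p = 3.06e-06) and still above control (log2 fold change 0.51, edgeR adjusted p = 0.000237).

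Timp1, the inhibitor that also binds the MMP9 precursor, was near the floor of detection. It lies on chromosome X from 20736405 to 20740974, overlapped by Syn1 on the opposite strand, which did not enter the test. Its counts were 1, 3 and 3 in control, 9, 3 and 3 with RANKL, and 8, 7 and 9 with RANKL + UD, at most 0.59 FPKM. RANKL replicate 1 stood with the UD libraries and the other RANKL libraries with control. Neither of the ratios that follow was resolved by these counts. RANKL over control was 1.93 (95% exact conditional interval 0.742 to 5.61), and RANKL + UD over RANKL was 1.75 (0.881 to 3.59). No such ratio was taken for RANKL + UD over control, where all RANKL + UD libraries were above all control libraries. When every gene with a count was tested, edgeR gave that comparison a log2 fold change of 1.73 (SE 0.916, adjusted p = 0.17). Timp3, which binds to the matrix, lies on chromosome 10 from 86136236 to 86185370 and is overlapped by Syn3, also not tested. It had 0, 1 and 4 counts in control, 0 in every RANKL library, and 3, 0 and 3 with RANKL + UD, and no fold is given for it.

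Ratios of a protease to an inhibitor that binds it were also read within each library. On the log2 scale the Mmp9 to Timp1 ratio had a mean of 3.32 in control, 12.1 in RANKL and 9.93 in RANKL + UD. The Mmp12 to Timp1 ratio had means of 10.3, 8.52 and 6.02. Each of these 4 differences had all 3 libraries of a group beyond all 3 of the other and an exact permutation p of 0.1 (0.133 adjusted). The Mmp14 to Timp2 ratio differed by 1.49 between RANKL and control (exact permutation p = 0.2) and by 0.07 between RANKL + UD and RANKL (exact permutation p = 0.8), with groups that overlapped. The Timp1 and Mmp14 counts behind these ratios were 12 or fewer per library.

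**Figure D3:**
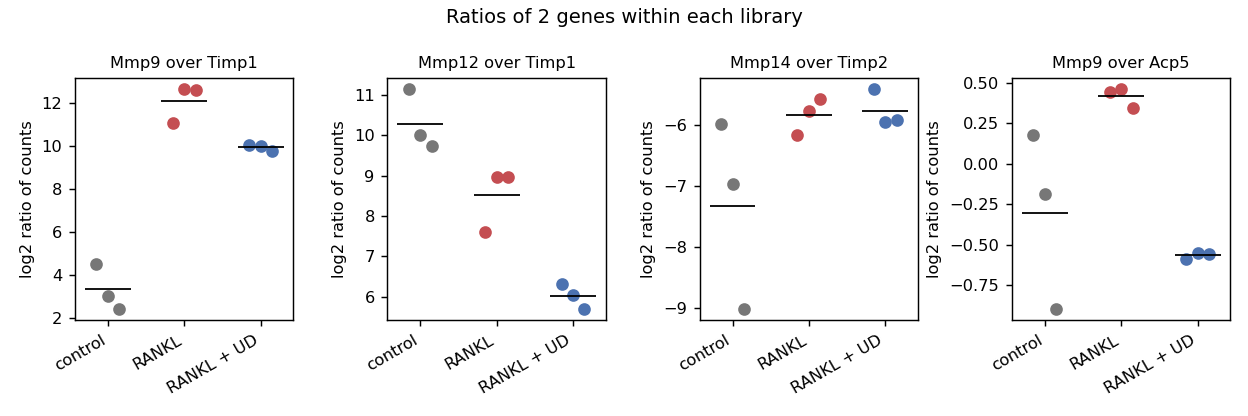
Log2 ratio of the counts of 2 genes within each library (vertical axes, with 0.5 added to each count) for 4 pairs, in control, RANKL and RANKL + UD; points are libraries and lines are means. For Mmp9 over Acp5 the 3 RANKL libraries lie between 0.35 and 0.46 and the 3 RANKL + UD libraries between -0.59 and -0.55.

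Adam8, a membrane protease of myeloid cells with a known role in osteoclast formation, was the highest of the 9 genes in control. It lies on chromosome 7 from 139558845 to 139572475. Its libraries stood at 48.95, 50.04 and 56.20 FPKM in control, 48.61, 50.61 and 51.10 FPKM with RANKL, and 38.75, 44.27 and 42.00 FPKM with RANKL + UD. Control and RANKL libraries overlapped, and the UD libraries were below both. RANKL against control gave a log2 fold change of 0.04 (SE 0.056, edgeR adjusted p = 0.55), whose sign turned with library totals alone and with limma. With UD, Adam8 was 1.28-fold lower than with RANKL (log2 fold change -0.35, SE 0.057, edgeR adjusted p = 4.40e-05) and 1.24-fold lower than control (log2 fold change -0.31, SE 0.057, edgeR adjusted p = 9.04e-05). The tested gene Gm16201 overlaps Adam8 on the opposite strand with at most 1.75 FPKM in any group.

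Ordered by FPKM, which is per length, the 9 genes ran Adam8, Mmp12, Timp2, Mmp19, Acp5, Mmp9, Timp1, Mmp14 and Timp3 in control. With RANKL, Acp5 and Mmp9 moved ahead of Adam8, which was followed by Mmp12, Timp2, Mmp19, Timp1, Mmp14 and Timp3. In RANKL + UD the order was the same except that Timp2, at 5.50 ± 0.307 FPKM (SD, n = 3), stood above Mmp12 at 4.28 ± 0.405. In each group neighbours in this order did not overlap between libraries, except Mmp14 and Timp3 in control.

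Counting calls, RANKL against control had 4 of the 6 tested genes higher (Mmp9, Acp5, Timp2 and Mmp19) where 27.3% of all tested genes were called higher, and 1 lower (Mmp12) where 30.2% were called lower. Mmp9 and Acp5 entered the test through the groups given RANKL. Their calls above control, here and for RANKL + UD below, were thus in part set by the filter. RANKL + UD against RANKL had 0 higher, where 18.6% were, and 6 of 6 lower, where 20.2% of all tested genes were. Their median log2 fold change was -0.72 beside 0.005 over all tested genes. With library totals alone, the share of all called genes that were higher in this comparison moved from 48.0% to 66.2%, and in RANKL against control it moved from 47.5% to 36.8%, while the same 6 genes were still called lower with UD. RANKL + UD against control had 3 higher (Mmp9, Acp5 and Timp2) where 26.7% were, and 2 lower (Mmp12 and Adam8) where 27.3% were. By the deposited FPKM of all 9 genes, RANKL libraries were all above control for 5 genes (22.9% of all tested genes) and all below for 1 (38.8%). RANKL + UD libraries were all above RANKL for 0 genes (34.1%) and all below for 6 (17.6%), and against control they were all above for 5 (29.5%) and all below for 3 (30.4%). Mmp14 was among the 5 with RANKL, and Mmp14 and Timp1 were among the 5 with RANKL + UD. Both were near the floor and did not enter the test, so the percentages do not cover them. These comparisons share libraries, so their values are set side by side only.

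**Figure D4:**
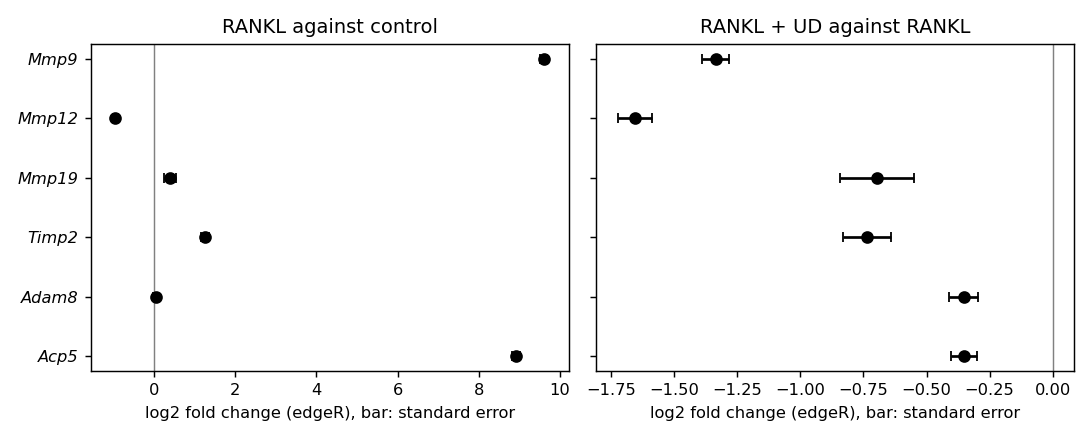
Log2 fold change from edgeR with its standard error (horizontal axes, a different scale in each panel) for the 6 tested genes in RANKL against control and in RANKL + UD against RANKL. On the left Mmp9 (9.59) and Acp5 (8.91) stand far from the rest, and on the right all 6 lie below 0, from -1.66 for Mmp12 to -0.35 for Adam8 and Acp5.

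Most other metalloproteinase genes had few or no reads in these cells. Of 20 further genes, namely the other Mmp genes and Timp4, only Mmp8 entered the test. Mmp8, the neutrophil collagenase, had 53 to 73 counts in control, 0 to 4 with RANKL and 0 to 2 with RANKL + UD. It passed the filter through the control group, where it was high, so its difference from control was in part set by the filter. RANKL against control gave a log2 fold change of -4.72 (SE 0.541, edgeR adjusted p = 1.86e-07), and RANKL + UD against RANKL gave -1.59 with a standard error of 1.19 (edgeR adjusted p = 0.318).

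Of 31 other ADAM and ADAMTS genes, 6 were tested. With RANKL 2 rose and 4 fell, where 27.3% and 30.2% of all tested genes did. The median log2 fold change of the 6 was -0.74 beside -0.03 over all tested genes. Adam17, the sheddase of TNF, fell from 76.6 to 36.5 FPKM (log2 fold change -0.98, edgeR adjusted p = 1.72e-13), and Adam15, Adamts10 and Adam9 fell by 1.35, 1.14 and 0.49 on the log2 scale. Adamts13, which cleaves von Willebrand factor, rose by 0.54 (edgeR adjusted p = 0.00641) with all RANKL libraries above control. Adam10, the sheddase of Notch, rose by 0.19 (edgeR adjusted p = 0.00274), and its libraries overlapped by FPKM. With library totals alone and with limma, 1 of the list rose, and with no filter 4 rose and 5 fell. With UD 1 of the 6 rose and 0 fell, where 18.6% and 20.2% of all tested genes did. The gene that rose was Adam10 (log2 fold change 0.26, SE 0.049, edgeR adjusted p = 0.000252), while Adam8, outside this list, was lower.

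Most tested genes that activate, anchor or otherwise restrain proteases at the cell surface were lower with UD. Of 13 such genes 7 were tested. With RANKL 4 rose and 1 fell, where 27.3% and 30.2% of all tested genes did. The count that fell was 2 with library totals alone, with no filter, and without control replicate 1 or 2. In RANKL + UD against RANKL 0 rose and 6 fell, where 18.6% and 20.2% did. Their median log2 fold change was -0.62 beside 0.005 over all tested genes. Plau, the urokinase-type plasminogen activator, stood at 39.6 FPKM in control and rose to 165.9 in the RANKL group (log2 fold change 2.15, edgeR adjusted p = 4.21e-19). In the UD group Plau stood at 110.1, below RANKL (log2 fold change -0.68, edgeR adjusted p = 3.43e-10) and still above control (log2 fold change 1.48, edgeR adjusted p = 1.77e-16). Plaur, the urokinase receptor, fell at both steps, from 21.2 to 12.9 and 7.67 FPKM. Cd44, a hyaluronan receptor that can hold MMP9 at the cell surface, rose by 0.29 with RANKL and fell by 0.62 with UD on the log2 scale. Lrp1, the endocytic receptor that clears proteases bound to their inhibitors, rose by 0.52 and fell by 0.73, and Bsg, also known as the metalloproteinase inducer EMMPRIN, rose by 0.62 and fell by 0.34. Furin, which cleaves the MMP14 precursor, fell by 0.39 with UD (edgeR adjusted p = 0.0109).

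None of the tested acid phosphatases or TRAP substrates other than Acp5 was called higher with RANKL in the fit of all 9 libraries. Of 10 listed genes of acid phosphatases and TRAP substrates 9 were in the table and 4 were tested. Of these 0 rose and 2 fell with RANKL, where 27.3% and 30.2% of all tested genes did. With UD 0 rose and 2 fell, where 18.6% and 20.2% did. Without control replicate 3, 2 of the list rose with RANKL, and limma called 1 lower with UD. Spp1, which codes for osteopontin, a phosphoprotein that TRAP dephosphorylates, stood at 2263 FPKM in control, 1056 in RANKL and 778 in the UD group (log2 fold changes -1.01 and -0.53, edgeR adjusted p = 3.56e-14 and 9.66e-09). Acp2, the lysosomal acid phosphatase, changed by 0.06 with RANKL (edgeR adjusted p = 0.553) and fell by 0.33 with UD (edgeR adjusted p = 0.00191), a size close to the -0.35 of Acp5. Acp6, the mitochondrial lysophosphatidic acid phosphatase, fell by 0.61 with RANKL (edgeR adjusted p = 6.98e-07). No difference between these genes and Acp5 was tested.

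**Figure D5:**
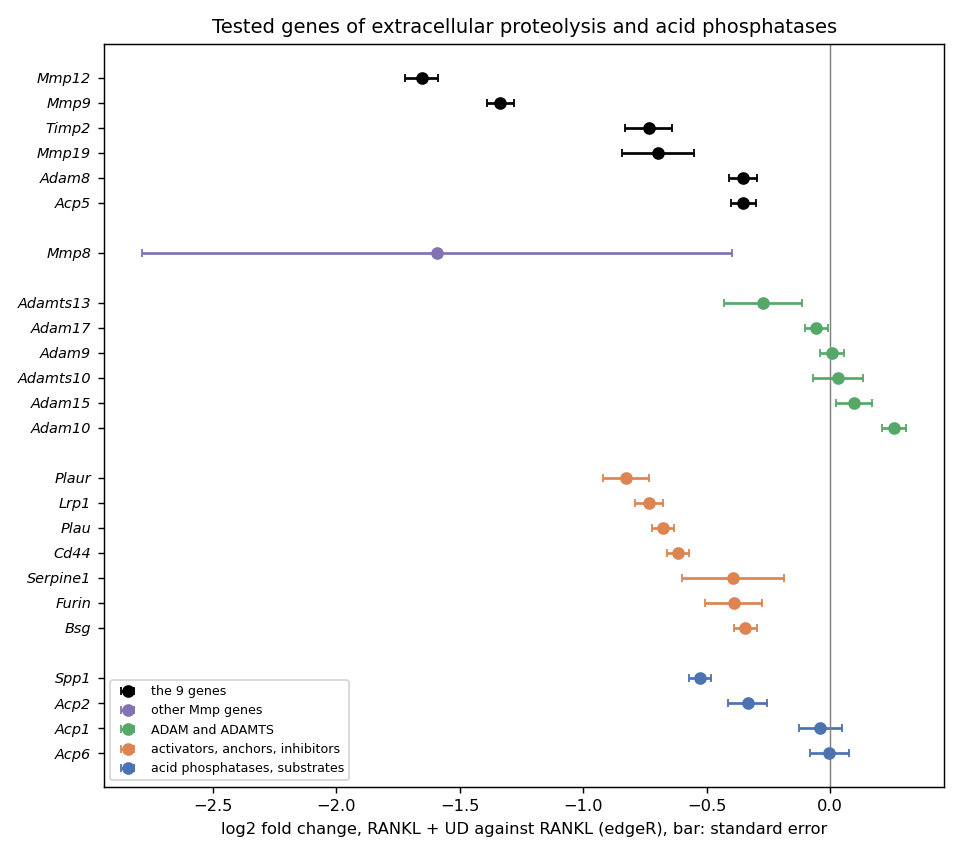
Log2 fold change of RANKL + UD against RANKL from edgeR with its standard error (horizontal axis) for the 6 tested genes and for the tested genes of 4 further lists, a colour for each list. All 6 tested genes and 6 of the 7 tested activators, anchors and inhibitors passed the test below 0, while Adam10 was the only gene shown that passed it above 0.

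The genes whose profile over the 9 libraries lay closest were found by the root mean square difference of log2(FPKM + 1), each gene centred on its own mean. Closest to Mmp9 were Ctsk (0.244), the collagen-degrading cathepsin K of osteoclasts, Acp5 (0.464) and Scin (0.933), an actin-severing protein. Acp5 had the same neighbours, Ctsk (0.393), Mmp9 and Scin (1.11). Ctsk stood at 8.34 FPKM in control, 1491 in the RANKL group and 869.3 in the UD group, and Scin was listed at 0 in control. Closest to Mmp12 were Rgs1 (0.057), a regulator of G-protein signalling, Pmp22 (0.165) and Mcoln2 (0.189), an endolysosomal channel. Rgs1 fell in the same steps, from 55.2 to 28.8 and 10.1 FPKM. Closest to Adam8 were Fes (0.039), Stim2 (0.041) and Itga5 (0.043), each with a log2 fold change between -0.42 and -0.35 with UD. These are descriptions over 9 libraries in 3 groups, and many genes share such step patterns.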

How the data were processed

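The 9 RAW264.7 RNA libraries were assigned by their labels to control, RANKL or RANKL + UD (n = 3 per group), and the 18 value columns of the table were each matched to 1 library. The deposited counts are whole, unnormalized reads of each gene. The authors computed FPKM by dividing each count by exonic length and library total, with 2 decimals. Sequencing was on the Illumina NovaSeq platform, and the aligner and counter are not given in the sources used here. The submitters' processing notes name mm10, yet the table's coordinates equal the GRCm38 annotation (GENCODE M21) for 1 of the 9 genes, with the same span for all 9, so their build was not settled and they are printed as the table gives them.

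edgeR 4.0.16 in R 4.3.3 was run with TMM scaling (factors 0.959 to 1.03) on all 9 libraries. Ratios of gene pairs used counts plus 0.5 and an exact two-sided permutation test. The alternatives were RLE size factors, library totals alone, no filter, DESeq2 1.42.0, limma 3.58.1 on log2(FPKM + 1), log2(FPKM + 0.1) or quantile-normalized values, 6 libraries only, a replicate block, and each library left out. The fits were tested on simulated data. The 9 genes, the gene lists and the tests were chosen with earlier results of these data known. The text names the 9 genes, the called genes of each list (values for at most the 6 of highest FPKM) and the 3 genes of closest profile for Mmp9, Acp5, Mmp12 and Adam8. Mmp14 and Timp1 were not tested and have none. Tables were prepared in Python 3.11.15. Intervals on counts are 95% exact and cover counting error only. No batch is given in the labels.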

Additional observations from a re-analysis of the deposited data

How the results depend on the processing

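The 6 tested genes in 3 comparisons gave 324 alternative log2 fold changes. Of these 311 kept their direction and their side of the threshold, 7 lost the call (Mmp19 with RANKL and Acp5 with UD, given above), 2 gained it (Mmp19 in RANKL + UD against control) and 4 changed sign. The 4 were Adam8 in RANKL against control, not called in any of them, at -0.047 with library totals alone, -0.043 and -0.044 with limma on log2(FPKM + 1) and log2(FPKM + 0.1), and -0.10 with quantile normalization. Over all genes, RANKL + UD against RANKL had 2233 called higher and 2418 lower. With library totals alone 3350 were higher, and limma called 1539 lower on log2(FPKM + 1) and 1488 on log2(FPKM + 0.1). The cause was not tested, but library totals alone move the median log2 fold change of all genes to 0.091 in this comparison and to -0.116 in RANKL against control.

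The Mmp14 to Timp2 ratio difference between RANKL and control turned from 1.49 to -0.40 with FPKM + 0.1 in place of counts. Between RANKL + UD and RANKL it ran from -0.10 to 0.20 with 1 library left out, and was -0.10 without RANKL + UD replicate 1 and -0.09 without RANKL replicate 1. With FPKM + 0.1 the difference between RANKL + UD and RANKL was 0.39. The difference in the Mmp9 to Acp5 ratio with UD ran from -1.02 to -0.96.

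Replicate numbers are shared between groups, and whether they pair the samples was not settled. Deviations of same-numbered libraries correlated at -0.019 to 0.098, and those of differently numbered libraries at -0.102 to 0.046. For 4 of the 9 libraries, both correlations with their own number exceeded every correlation with another number. Control replicate 3 and RANKL + UD replicate 3 also had their highest correlation with each other, at 0.061. For replicate 2 of each group, the highest correlation was with a differently numbered library. With the replicate number as a block, RANKL + UD against RANKL had 2347 higher and 2518 lower calls, Mmp9 fell by 1.34 with UD, and no call among the 6 genes changed. Of 756 alternative counts over gene lists, 731 stayed within 1.5 times the value given. Many of these counts were 0, and those of the stromal markers could move only without the filter. This agreement was therefore in part set in advance. At this depth Mmp14, Timp1 and Timp3 were too low for small differences to be seen.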
